A study of Mus musculus with 14 samples.

Results

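Later-intron peaks are sites of open chromatin that lie in an intron other than the first one of the transcript holding them. They were chosen from the deposited merged peak list of mouse blood progenitors by 2 features of its annotation: an intron number of 2 or more, and no repeat element at the site. In all, 20762 of the 92842 peaks met both (22.4%, exact 95% interval 22.1 to 22.6), which is 53.2% of the 39021 intron peaks. The study ran ATAC-seq, which reads open DNA from where a transposase could insert its adapters, on 7 sorted cell types of adult wild-type C57BL/6 mice with 2 libraries each. MPP (multipotent), CMP (common myeloid), CLP (common lymphoid), GMP (granulocyte/macrophage), MEP (megakaryocytic-erythroid) and ProB (B cell) progenitors came from bone marrow, and ProT (T cell) progenitors from thymus. Whether both libraries of a type stem from separate animals is not stated. The list merges the cell types and holds no value per library. What follows therefore compares peaks and genes, not cell types, and no depth, replicate error or test between samples can be given. Intervals are exact (Clopper-Pearson) 95% binomial intervals and cover counting error only. Peaks of 1 gene share their host and are not independent, so the intervals are narrower than that dependence would make them. As a check of the label, 20556 of the 20762 peaks lay within the span that RefSeq gives their host gene. Of the other 206, 32 had no matched host, and 140 were placed in introns of microRNA accessions, such as Mir5098 with 23 peaks and Mir8115 with 16, whose genes the table places elsewhere.

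Introns hold many of the enhancers that switch blood genes on and off. Classical cases are the erythroid enhancer in an intron of Alas2, the B cell enhancer of Pax5 and the Bcl11a enhancer that controls fetal globin. An intronic enhancer may act on the gene that hosts it or reach past it to a neighbour, as enhancers of the alpha globin genes do from within Nprl3. Peak lists instead name the gene with the nearest transcription start site (TSS), which is a matter of distance. The central comparison was therefore between 2 genes per peak: the host, taken from the transcript in whose intron the peak lies, and the gene named as nearest.

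Sequence could be shown for those later introns in which RefSeq places a further start. The table of RefSeq promoters (build GRCm38.p6, with the chromosome sequences of mm10) gives 250 bases before and 50 bases from each start on. Of the 20095 later-intron peaks on chromosomes that the table covers, 179 (0.891%, 0.766 to 1.03) held a RefSeq start, against 5.47% of first-intron peaks and 2.21% of intergenic peaks, both outside repeats. Among peaks annotated as promoters, 7368 of 10443 (70.6%) held one. The table also lacks starts of some genes on these chromosomes, such as Ets1, so all of these shares may be too low. Peaks at a start are thus mostly not annotated to introns, and the low share follows in part from the choice of intron peaks. In 50 later-intron peaks of 49 hosts the start belonged to the host gene itself, so the peak held a further annotated start of its host. In 36 of these 50 the start site used in the list lay more than 5 kb away. The other 129 held the start of another gene, 123 of them a long noncoding RNA gene and 6 a coding gene. Where the strand of the host was known, 103 of 109 such starts ran against the host.

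In 21 peaks with a start of the host, the whole window of 300 bases lay within the peak. The windows of 5 of them show the sequence around such inner starts, in genes of lymphocytes, signalling, cell death and division. The choice was made with their values in view, and each is written 5′ to 3′ along its gene. Sema4d encodes the semaphorin CD100 of lymphocytes (chr13:51756634-51756933, minus strand), Arhgef6 an exchange factor for Rac and Cdc42 (chrX:57326552-57326851, minus strand), and Rps6ka1 the kinase RSK1 (chr4:133872986-133873285, minus strand). Mad1l1 encodes a spindle checkpoint protein (chr5:140174869-140175168, minus strand) and Bcl2l14 a member of the Bcl2 family (chr6:134414178-134414477, plus strand). Capitals mark matches to 3 motifs on either strand: GGAAGT, a core of ETS factor sites, AGATAA, a core of GATA sites, and TGTGGT, a core of RUNX sites. No match overlapped another in these windows.
Sema4d: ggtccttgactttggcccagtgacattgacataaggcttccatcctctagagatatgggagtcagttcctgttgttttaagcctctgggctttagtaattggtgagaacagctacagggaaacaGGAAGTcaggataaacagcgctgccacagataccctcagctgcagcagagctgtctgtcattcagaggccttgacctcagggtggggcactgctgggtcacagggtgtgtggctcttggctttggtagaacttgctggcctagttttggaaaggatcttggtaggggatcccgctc
Arhgef6: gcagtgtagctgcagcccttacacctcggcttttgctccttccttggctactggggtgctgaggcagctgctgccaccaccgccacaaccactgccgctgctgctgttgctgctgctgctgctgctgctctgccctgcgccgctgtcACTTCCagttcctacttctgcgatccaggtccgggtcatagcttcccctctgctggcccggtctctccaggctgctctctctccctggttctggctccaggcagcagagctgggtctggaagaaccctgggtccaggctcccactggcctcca
Rps6ka1: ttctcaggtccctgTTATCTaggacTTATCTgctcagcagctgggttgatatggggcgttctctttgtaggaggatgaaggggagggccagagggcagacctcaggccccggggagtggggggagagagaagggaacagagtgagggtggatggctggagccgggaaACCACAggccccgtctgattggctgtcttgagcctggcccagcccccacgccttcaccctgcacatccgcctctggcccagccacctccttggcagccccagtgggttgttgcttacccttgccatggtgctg
Mad1l1: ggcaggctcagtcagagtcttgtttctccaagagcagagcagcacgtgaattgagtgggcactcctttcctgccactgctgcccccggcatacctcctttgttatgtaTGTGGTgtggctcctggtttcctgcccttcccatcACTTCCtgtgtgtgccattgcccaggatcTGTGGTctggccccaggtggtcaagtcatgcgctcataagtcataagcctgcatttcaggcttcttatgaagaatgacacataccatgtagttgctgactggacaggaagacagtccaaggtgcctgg
Bcl2l14: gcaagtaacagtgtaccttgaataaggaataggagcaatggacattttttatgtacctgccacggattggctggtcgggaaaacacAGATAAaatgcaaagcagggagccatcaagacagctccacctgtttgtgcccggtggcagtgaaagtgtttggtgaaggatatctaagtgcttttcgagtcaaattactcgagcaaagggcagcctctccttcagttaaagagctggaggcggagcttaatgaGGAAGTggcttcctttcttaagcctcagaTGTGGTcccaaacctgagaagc
The Sema4d and Arhgef6 windows each held 1 GGAAGT match, in Arhgef6 as ACTTCC on the other strand. The Rps6ka1 window held 2 AGATAA matches, both as TTATCT, and 1 TGTGGT match, as ACCACA. The Mad1l1 window held 2 TGTGGT matches and 1 GGAAGT match, as ACTTCC, and the Bcl2l14 window held 1 of each motif. For each of the 179 later-intron peaks with a start, 1 window was counted whole, also where it reached beyond the peak. Of these windows, 57 held GGAAGT (31.8%), 25 AGATAA and 44 TGTGGT (24.6%). Over all 32851 windows of the table, of the same length, 3672 (11.2%) held AGATAA, and the shares with GGAAGT and TGTGGT were 23.8% and 16.8%. These are matches of letters, not measured sites. The 2 sets of windows were not matched for kind of gene, and no difference between them was tested. The Sema4d start lay in intron 2 of 16 and 37.0 kb from the TSS named for the peak, and that of Mad1l1 in intron 11 of 17 and 147 kb away. Those of Arhgef6 (intron 2 of 21, 12.1 kb), Bcl2l14 (intron 2 of 6, 18.0 kb) and Rps6ka1 (intron 2 of 21, 1.68 kb) lay closer.

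The host gene was the gene named as nearest for 12947 of 20730 later-intron peaks with a known host (62.5%, 61.8 to 63.1). Another gene was nearest for the other 7783 (37.5%). Among first-intron peaks outside repeats, the host was nearest for 10630 of 11475 (92.6%, 92.1 to 93.1). The nearest TSS was that of the host transcript itself for 45.1% of the later-intron peaks, and that of another transcript of the same gene for 17.4%. For first-intron peaks the share with the TSS of the host transcript was 74.2%. The 32 later-intron peaks without a host gene, whose accession was not matched, were left out of these shares.

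The share fell with every step in intron number. At the edge of the rule, 83.0% (82.0 to 84.1) of 5250 peaks in intron 2 were nearest to their host, with a median distance to the TSS of 20.8 kb, while first-intron peaks, just outside, had a median of 8.43 kb. In intron 3 the share was 73.3%, in intron 4 it was 68.1% and in introns 5 to 9 it was 58.6%. In introns 10 to 19 it was 39.7% (38.0 to 41.3) and from intron 20 on 26.5% (24.3 to 28.8) of 1534 peaks. The median distance to the nearest TSS was 50.8 kb from intron 20 on. Intron 2 held 25.3% of the later-intron peaks, and the median intron number was 4. The highest number was intron 135 of 156 of Neb, the gene of the giant muscle protein nebulin. An intron number belongs to the transcript that the list names, and another transcript of the same gene may count it differently.

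**Figure D1:**
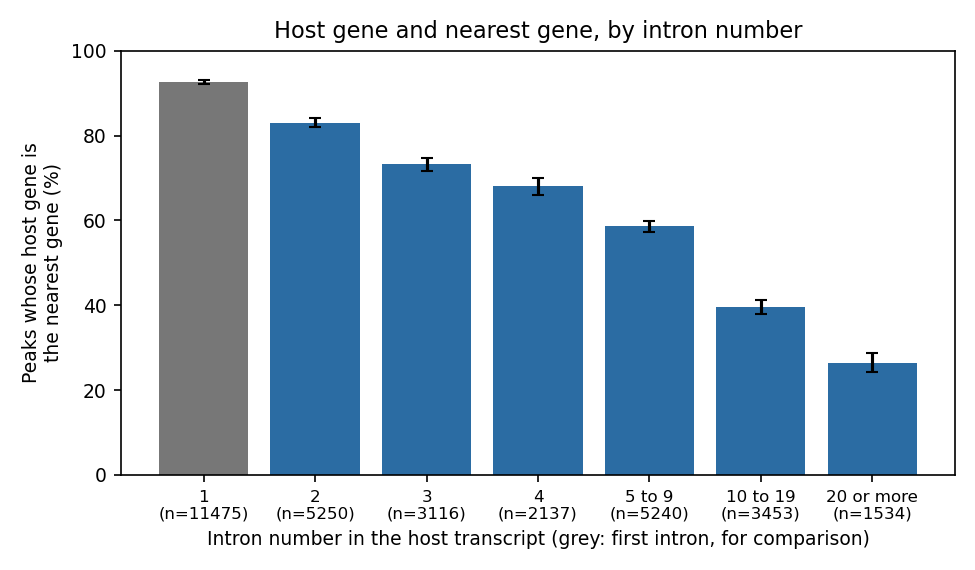
Share of intron peaks outside repeats (y axis, percent) whose host gene is also the nearest gene, by intron number (x axis, with the number of peaks); bars are shares and whiskers exact 95% intervals. The share falls from 92.6% in the first intron (grey) to 83.0% in intron 2 and 26.5% from intron 20 on.

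Later introns differed from first introns within ranges of distance from the start of the host too. The distance to the closest RefSeq start of the host could be computed for 16312 later-intron peaks. Within 5 kb of that start, 93.8% (92.2 to 95.1) of 1172 later-intron peaks and 97.9% (97.3 to 98.3) of 3473 first-intron peaks were nearest to their host. At 20 to 50 kb the shares were 71.6% (70.1 to 72.9) and 89.7% (88.1 to 91.2). At 100 kb or more they were 33.6% (32.1 to 35.0) of 4179 and 79.7% (75.2 to 83.7) of 364. The intervals of both kinds of intron did not overlap in any of the 5 distance ranges. The ranges are wide and the last has no upper end, so distance and host length may still differ within a range. Whether the difference holds at equal distance was not tested.

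**Figure D2:**
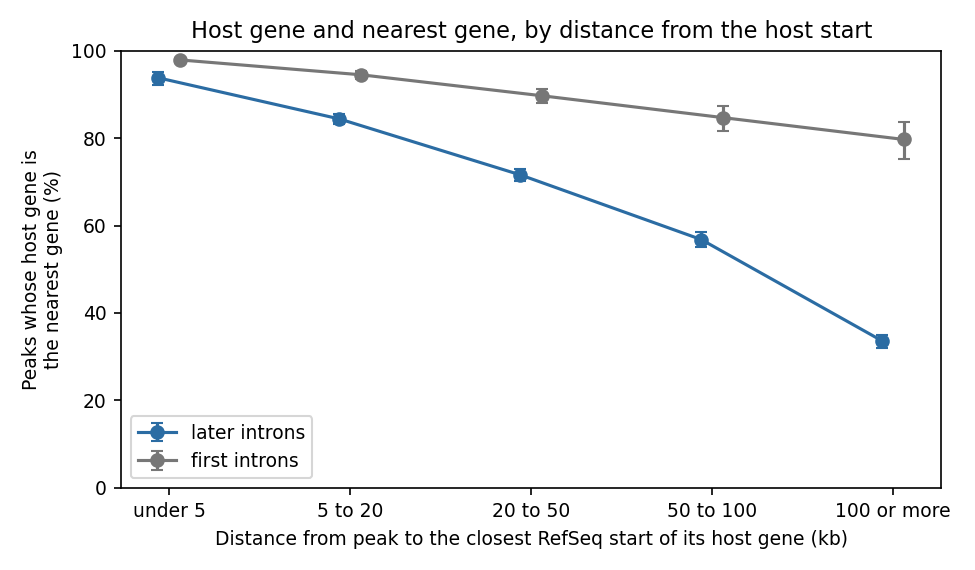
Share of peaks whose host gene is the nearest gene (y axis, percent) against the distance to the closest RefSeq start of the host (x axis, kb), for later introns (blue) and first introns (grey); points are shares and whiskers exact 95% intervals. Later introns lie below first introns in each range, by most at 100 kb or more (33.6% and 79.7%).

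Along the host, later-intron peaks lay towards the far end. This follows in part from the rule, which leaves out the first intron, next to the start. Of the 16312 that could be placed, 8.69% lay in the part next to the start when the gene was divided into 5 equal parts, and 25.8% in the part next to its end. The median position was 61.5% of the way. The host was nearest for 94.8% of the peaks in the part next to the start, for 81.2% in the middle part, and for 32.5% (31.1 to 34.0) in the part next to the end. Of 2344 peaks in the last intron of a known host, 51.7% (49.7 to 53.8) were nearest to that host.

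**Figure D3:**
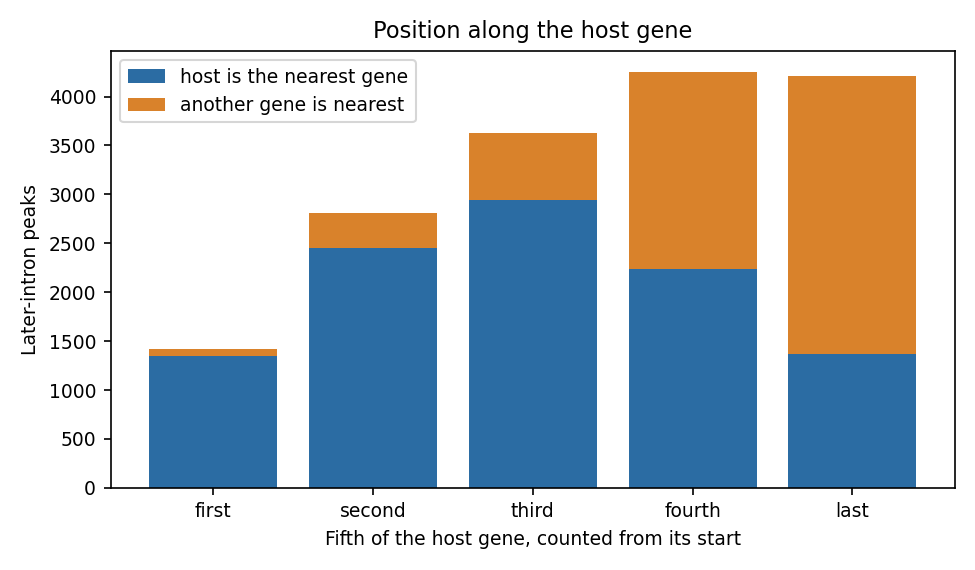
Number of later-intron peaks (y axis) in 5 equal parts of the host gene from its start to its end (x axis); blue marks peaks nearest to their host and orange those nearest to another gene. The blue part shrinks from 94.8% next to the start to 32.5% next to the end.

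Length of the host moved with the share as well. In hosts under 20 kb, 84.7% (82.9 to 86.3) of 1776 peaks were nearest to the host, and in hosts of 200 kb or more 52.2% (51.0 to 53.4) of 6247. Long hosts also held more peaks each, with a mean of 7.58 at 200 kb or more and 1.25 under 20 kb. Per 100 kb of gene the order was the reverse, with medians of 1.53 and 10.0, but a gene counts as a host only with at least 1 peak, which sets a floor on the density of short genes. Over 7190 hosts, number of peaks and length had a Spearman rho of 0.558, a description over genes that share the same libraries and annotation.

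Later-intron peaks were far from the TSS that the list names. The median distance was 31.5 kb (30.8 to 32.2), near the 31.4 kb of intergenic peaks outside repeats, and 16.1% lay over 100 kb away, against 2.92% of first-intron peaks. Only 0.708% lay within 1 kb of the TSS named, where the annotation gives most peaks to promoters, against 14.6% of first-intron peaks. These distances count only starts that the list uses. A RefSeq start lay inside 179 later-intron peaks (0.891% of those on chromosomes that the promoter table covers, though not for every gene). CpG islands, which mark many promoters, covered 0.949% (0.821 to 1.09) of the later-intron peaks, 8.53% of the first-intron peaks and 2.53% of the intergenic peaks. The next peak of any kind was a median of 4.93 kb away, against 4.77 kb for intergenic and 2.92 kb for first-intron peaks. Another peak lay within 2 kb of 24.2%, 25.5% and 38.6% of these 3 groups. Repeats had removed 17.9% of the peaks in later introns and 16.3% of those in first introns.

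The 2 ways of naming a gene differed in distance. Peaks nearest to their host lay a median of 28.3 kb from the TSS (27.6 to 29.0), and those nearest to another gene 37.7 kb (36.5 to 39.1). When every host counted once, so that hosts with many peaks weighed less, the medians were 18.4 and 25.7 kb. For 5973 of the latter the distance to the closest RefSeq start of the host was also known. Its median was 90.0 kb, against 37.3 kb to the TSS named, and per peak the ratio had a median of 2.00. That the ratio is mostly above 1 follows from the choice of the nearest TSS. In 668 peaks (3.22%) the nearest TSS was one of the host that lay further along the gene, so that the peak sat upstream of an inner start. Such peaks made up 4.82% of first-intron peaks.

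The farthest peaks lay in Ptprd, a receptor phosphatase gene of neurons. A peak in its intron 8 of 39 (chr4:76948312-76948810) was 1263 kb from the TSS, which was that of Ptprd, and a peak in intron 10 was 1171 kb from Tmem261. Peaks in intron 7 lay 1101 and 1087 kb from the Ptprd TSS. A peak in intron 8 of 18 of Macrod2 was given to Kif16b at 1067 kb.

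Where another gene was nearest, it was a coding gene in 66.0% of cases, a long noncoding RNA gene in 17.8%, a microRNA gene in 13.4% and a pseudogene in 1.86%. The 7783 peaks were given to 3120 genes. Of the 7492 pairs with both genes placed, the nearest gene lay apart from the host in 62.1%, wholly inside it in 27.8% (26.8 to 28.9) and overlapped it in part in 10.1%. These kinds differed in place: 85.7% of the microRNA cases and 51.8% of the long noncoding RNA cases lay inside the host, but 9.13% of the coding cases. They differed in strand too, as 80.6% of 715 microRNA cases ran with the host, 51.1% of 3326 coding cases and 26.7% of 876 long noncoding RNA cases. In 84 peaks of 40 hosts the nearest gene was named as the opposite strand RNA of the host, with Arhgap15 and Arhgap15os leading at 8 peaks.

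MicroRNA genes inside a host are a case of their own. Most of them are cut from the transcript of the host, so the end of the hairpin that the list takes as a TSS need not be a promoter. In all, 1043 later-intron peaks were given to 345 microRNA genes. The 20 pairs with the most peaks held 255 of them, and 18 of those 20 microRNAs had a mature sequence in the RefSeq table. Their mature sequences, from the pairs with the most peaks, are shown with the seed (bases 2 to 8) in capitals.
mmu-miR-1904: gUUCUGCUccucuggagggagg
mmu-miR-7661-5p: aAGAAAGAaaccuggaguuuaaagu
mmu-miR-7661-3p: uUGACUCCcaguuucucucugc
mmu-miR-582-5p: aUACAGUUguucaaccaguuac
mmu-miR-582-3p: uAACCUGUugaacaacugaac
mmu-miR-6368: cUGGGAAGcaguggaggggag
mmu-miR-7681-5p: aUCCUGUCcuugcccucucu
mmu-miR-7681-3p: aGAAAGGGcacugacaggauag
mmu-miR-1936: uAACUGACcugcugugaacuggc
mmu-miR-3075-3p: aUCCUUGGccuuccuaggugu
The 25 mature sequences of these 18 microRNAs had 25 different seeds, so none of them grouped by seed. Mir1904 and Mir582 both lie in Pde4d on chromosome 13, on the strand of the host, with hairpins at 109903809 to 109903888 and at 109324744 to 109324824. Mir1904 was nearest to 23 later-intron peaks of Pde4d at 3.91 to 288 kb, and Mir582 to 20 at 19.1 to 285 kb. Mir7661 was nearest to 23 peaks of Itpr1 at 1.32 to 122 kb, of the 24 peaks given to it in all. Mir6368 took 20 peaks of 2610307P16Rik, and Mir7681, which runs against its host, all 16 of Hecw2. Mir7219 took 16 of the 17 peaks of Ldlrad4. No peak of the list lay over the hairpins of the 10 sequences shown. A single later-intron peak held a whole hairpin of the table, that of mmu-miR-1271 in intron 2 of 3 of Arl10 (chr13:54578081-54578579), and the list gave that peak to Arl10.

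The later-intron peaks fell in 7227 host genes, with a mean of 2.87 ± 3.56 (SD over hosts) and a median of 2 per host. A single peak was found in 3437 hosts (47.6%), while the 375 hosts with 10 or more (5.19%) held 27.0% of the peaks. Every peak was nearest to the host in 4232 hosts (58.6%), none in 1577 (21.8%) and some in 1418 (19.6%). Of the 375 hosts with 10 or more, 82 kept every peak and 31 kept none, 3 of these 31 being microRNA accessions placed outside their span. Another of the 31, Pakap, lost its 24 peaks only to names listed as its synonyms.

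The host with the most later-intron peaks was Pde4d, a cyclic AMP phosphodiesterase, with 49 peaks, of which 6 were given to it and 43 to its 2 microRNAs. Arid1b, a subunit of the BAF chromatin remodeller, held 44, of which 25 were its own and 19 went to Ldhal6b. Foxp1, a forkhead factor of B cell development, held 43, and all were its own. Wwox, a gene at a fragile site, held 42, of which 31 were its own and 11 were given to Maf, a bZIP factor gene beyond its end. Snx29, a sorting nexin gene, held 36, and 16 of these went to the noncoding 4833415N18Rik.

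Of the next 10 hosts, Msi2, an RNA-binding protein of stem cells, kept the fewest: 3 of its 29 peaks, with 19 given to 0610039H22Rik and 7 to Mir378b. Itpr1, a calcium channel of the endoplasmic reticulum, kept 11 of 34, and its relative Itpr2 kept 21 of 32. Sgms1, a sphingomyelin synthase, kept 30 of 31, Etv6, an ETS repressor that blood stem cells require, 27 of 31, and Tcf4, an E protein gene, 24 of 31. Nav2 kept 20 of 35, Lpp, a LIM domain protein, 18 of 33, the integrin gene Itga9 15 of 28 and Nfia, a factor of myeloid and erythroid choice, 20 of 28. Per length, Etv6 with 13.2 and Arid1b with 12.5 peaks per 100 kb were the densest of the 15, and Pde4d with 3.76 the sparsest.

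**Figure D4:**
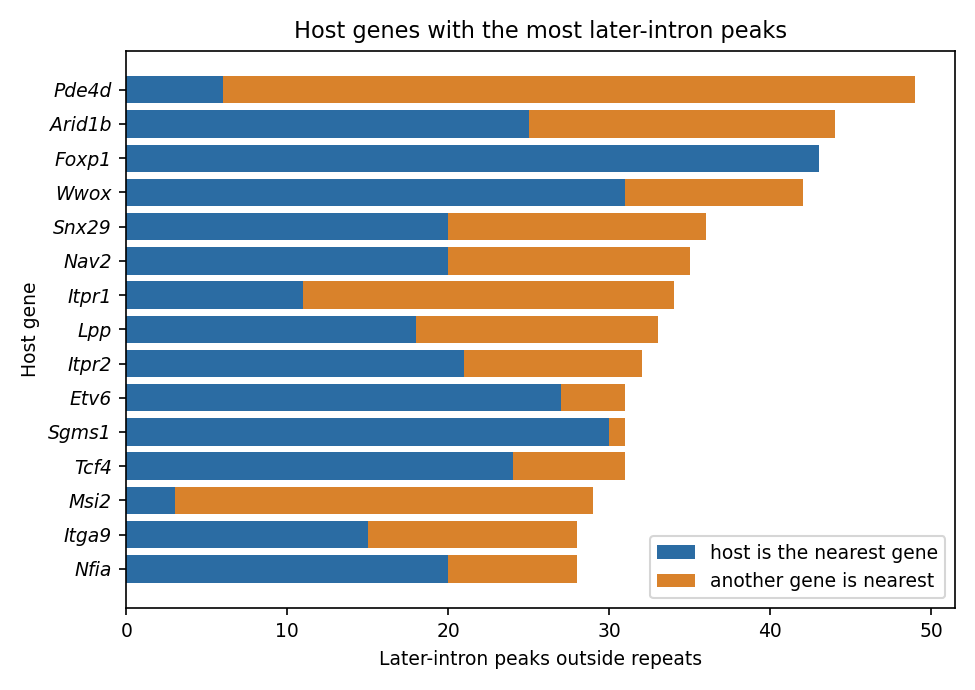
Number of later-intron peaks (x axis) in the 15 host genes with the most (y axis); blue marks peaks given to the host and orange those given to another gene. Foxp1 keeps all 43 peaks, while Pde4d keeps 6 of 49 and Msi2 3 of 29.

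Single introns carried much of this. Intron 3 of 16 of Pde4d and intron 8 of 8 of Wwox held 31 peaks each, over 621 and 565 kb, with 0 and 20 of them given to the host. Intron 4 of 19 of Arid1b held 19 over 109.7 kb and intron 2 of 3 of the noncoding A930011G23Rik 19 over 159 kb. Intron 2 of 20 of Igf1r, the receptor of insulin-like growth factor, held 18.

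The pairs of host and nearest gene with the most peaks, beside the microRNA pairs, were Fbxl17 with 4930405O22Rik and Rere with Slc45a1 at 20 each. Arid1b with Ldhal6b, Auts2 with 4930563F08Rik, Ctif with Gm10532 and Msi2 with 0610039H22Rik had 19 each. The transcriptional corepressor gene Rere kept 3 of its 23 peaks. The 20 given to Slc45a1 lay 43.3 to 179 kb downstream of its TSS and made up 69.0% of its 29 peaks. A930011G23Rik with Rasgef1b and Prkce, protein kinase C epsilon, with 2010106C02Rik had 17 each, and all of these lay upstream of the TSS named, at 74.3 to 227 kb and at 66.9 to 208 kb. Pairs with 16 were Park2 with D17Ertd648e, Sdccag8 with the pseudogene Hmga2-ps1, and Trio with Fam105a, beside those of Poc1b, Snx29 and 2 microRNAs. Trio kept 8 of its 24 peaks, Park2, a ubiquitin ligase of Parkinson disease, 3 of 23 and Sdccag8 none of 16. The pair Pakap and Akap2, with 18 peaks, is one of names: the RefSeq table lists Akap2 and Palm2, to which the other 6 Pakap peaks went, as synonyms of Pakap. Such synonyms covered 49 peaks in all, though in some of them, such as 4 peaks of Tom1l2 given to Srebf1, the table also lists both as genes of their own.

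Pairs of known biology could be followed peak by peak. Evi5, a cell cycle regulator, neighbours Gfi1, a repressor that neutrophils and stem cells require, and introns of Evi5 hold enhancers of Gfi1. Evi5 held 6 later-intron peaks, 4 in intron 17 of 17 and 2 in intron 16, and all 6 were given to Gfi1. They lay 23.9, 28.4, 29.2, 33.5, 42.7 and 47.0 kb upstream of the Gfi1 TSS and 96.3 to 119 kb from the start of Evi5. The fourth of these lies at chr5:107759063-107759561. Of the 10 peaks given to Gfi1 in all, 60% were thus inside its neighbour.

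Pax5, the factor that fixes B cell identity, held 8 later-intron peaks and none was given to it. All 8 went to the noncoding 5730488B01Rik. The 3 peaks in intron 5 of 9 (from chr4:44667435-44667933 to chr4:44672699-44673197) lay 29.9 to 35.1 kb upstream of that TSS and 37.7 to 43.0 kb from the start of Pax5. Intron 8 held 2 peaks and introns 4, 6 and 7 held 1 each. The list thus gives Pax5 only 5 peaks, while its later introns alone hold 8. Bach2, a repressor of B cell maturation, likewise lost all 4 of its later-intron peaks, to Bach2os, at 6.54 to 40.2 kb. Unlike Pax5, Bach2 is still given 37 other peaks by the list.

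Ebf1, the factor that starts the B cell programme, held 23 later-intron peaks. The 13 peaks in intron 6 of 15 and the 1 in intron 4 were its own, at 6.65 to 199 kb, and the 9 peaks in introns 7, 8 and 10 went to Gm12159. Ikzf1, which encodes Ikaros, showed the same order along the gene. The 10 peaks in intron 3 of 5, from chr11:11711689-11712187 on, were its own at 21.8 to 52.6 kb, and the 7 peaks nearer its end, 60.4 to 78.1 kb from its start, went to Fignl1. Zfpm1, which encodes the GATA1 partner FOG1, held 8: 3 at 27.3 to 33.0 kb were its own and 5 at 39.6 to 51.1 kb went to Trhr2, a receptor gene beyond its end.

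Other blood factors kept every later-intron peak. Bcl11a, a repressor of fetal globin and a lymphoid factor, held 12 in intron 2 of 4 and 1 in intron 3. They lay 6.66 to 81.6 kb from its TSS, with a run of 4 between 49.2 and 55.7 kb (chr11:24129653-24130151 to chr11:24136102-24136600). Runx1, which the embryo needs to form blood stem cells, held 13, of which 3 in intron 2 sat 1.35, 18.5 and 29.7 kb upstream of its inner TSS. Ets1 held 5, at 35.2 to 51.7 kb. In Foxp1, 26 of the 43 peaks lay in an intron numbered 2, which need not be 1 intron. The list counts it in 2 different transcripts, with peaks from chr6:99164731 to chr6:99252361 and from chr6:99261118 to chr6:99305662. Of the 43, 17 lay upstream of the Foxp1 TSS named, by up to 79.3 kb, and 26 downstream, by up to 102 kb.

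Alas2, the rate-limiting enzyme of heme synthesis in red cells, had 1 later-intron peak, in intron 8 of 10 (chrX:150564680-150565178). It lay 17.5 kb from the start of Alas2 and, at a distance that rounds to the same value, from Mir3620, to which it was given. In Nprl3, 5 later-intron peaks were found, 3 given to Nprl3 at 11.3 to 20.5 kb and 2 to Mpg, and none to an alpha globin gene. Notch1, the receptor that sets T cell fate, held 4, of which 1 was its own and 3 were given to Mir6996. That 1 peak is the only one the list gives to Notch1. The cytokine receptor gene Flt3 held 4 and kept 2, with 2 given to Urad. Ahi1, which lies beside Myb, kept all 6 of its peaks, and its other neighbour Hbs1l kept 1 of 2. The single peak in Stil, in intron 14 of 16, went to Tal1, a founding factor of blood, at 21.2 kb upstream. Lmbr1 and Caprin1 kept both of their peaks and Pdzk1ip1 its single one, and Slc39a13 and Rpn1 had none.

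**Figure D5:**
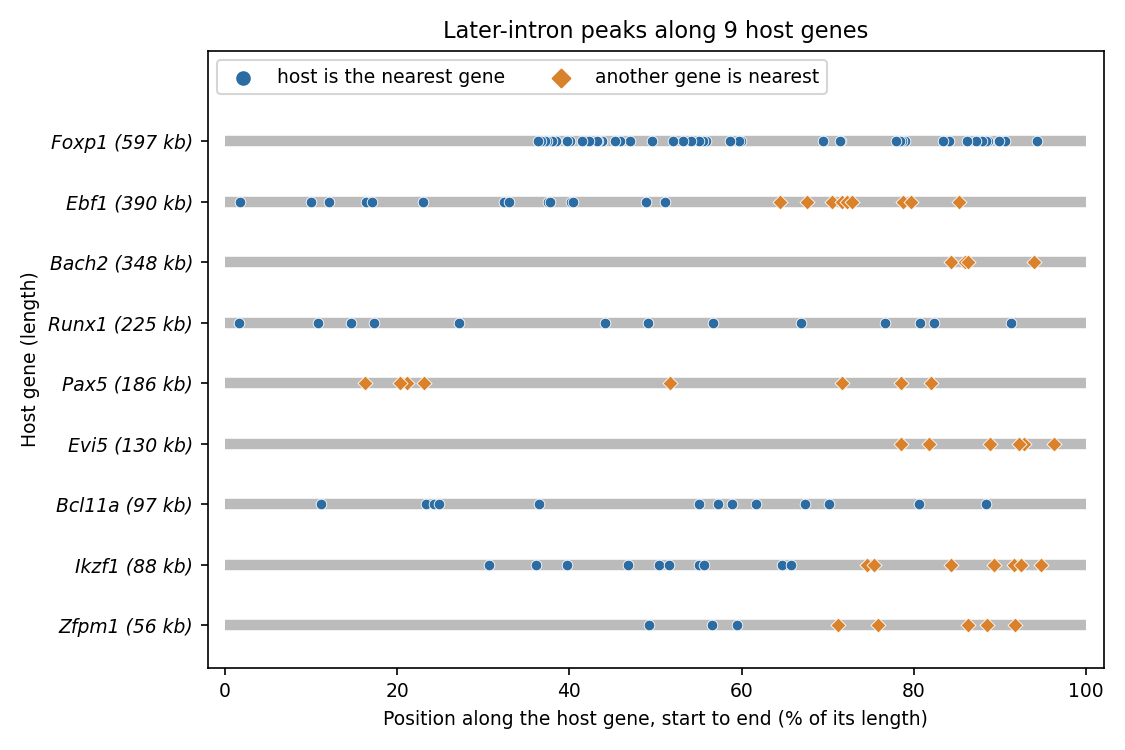
Later-intron peaks along 9 host genes (y axis, with length), by position from start to end in percent of length (x axis); blue circles are peaks given to the host and orange diamonds those given to another gene. Foxp1, Runx1 and Bcl11a keep all their peaks, Pax5, Evi5 and Bach2 keep none, and Ebf1, Ikzf1 and Zfpm1 keep those nearer their start.

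Over 7 lists of blood lineage genes, 461 later-intron peaks lay in 80 genes, and 135 of them (29.3%, 25.2 to 33.7) were given to another gene, against 37.5% of all. Stem and multipotent progenitor genes held 152 in 16 of 20 genes, led by Etv6, Msi2 and, with 17 peaks that were all its own, Erg. The median of this list was 3.50 per gene, against a median of 2 per host over all hosts. Common lymphoid genes held 82 in 12 of 16 genes (median 4), led by Mef2c with 18, of which 13 were its own, then Ikzf1 and Bcl11a. B cell genes held 114 in 11 of 20 genes (median 1), led by Foxp1, Ebf1 and Aff3, which held 13 and kept 10.

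Erythroid genes held 38 in 12 of 20 genes, led by Bcl2l1, a survival gene of red cell precursors, with 12, of which 9 were its own, then Zfpm1 and Nprl3. Megakaryocyte genes held 32 in 9 of 18 genes: Vwf, von Willebrand factor, held 9 and kept 6, Plek held 6 and kept 4, and Itgb3 kept all 4. T cell genes held 29 in 12 of 20 genes: Tcf7 had 5, Prkcq 4, and Runx3, Tox and Ptpn22 3 each. Granulocyte and macrophage genes held 15 in 9 of 20 genes. Csf1r had 3, and Spi1, Irf8, Itgam and Sirpa 2 each. Housekeeping genes held 4 in 4 of 18 genes, Ywhaz, Hprt, Sdha and Snrpd3, and kept all 4. Among genes of unrelated tissues, 58 peaks lay in 7 of 20 genes. Among them were long neuronal genes: Dlg2 held 19, of which 14 were its own, and Cntnap2 kept all 10. Per 100 kb Dlg2 and Cntnap2 held 0.963 and 0.446 peaks, against 19.3 in Ikzf1, 16.0 in Bcl2l1 and in Plek, 14.3 in Zfpm1 and 13.4 in Bcl11a. These blood genes were picked from the dense end and are much shorter: Dlg2 and Cntnap2 span 1973 and 2241 kb, Ikzf1 88.0 kb. Other blood genes were as sparse, such as Mecom with 0.358 and Themis with 0.928 per 100 kb. The housekeeping genes Snrpd3 and Sdha held 5.75 and 3.57. The medians per gene were 1 for the erythroid and T cell lists and 0.500 for the megakaryocyte list. They were 0 for the granulocyte and macrophage, housekeeping and unrelated tissue lists. List medians count genes without a peak as 0, while the median per host does not.

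Later introns of other genes also supplied peaks to blood genes: 60 such peaks were given to 20 of the 132 genes of the 7 lists (15.2%, 9.51 to 22.4). Over all genes named as nearest in the list the share was 16.3% (3120 of 19105), and that of the blood genes was not higher. The sets are unlike, as the 3120 include 418 long noncoding RNA and 345 microRNA genes. The 132 include genes without any peak, such as Vpreb1. In the list of unrelated tissues, 7 such peaks went to 3 of 20 genes. Apoa1, of the high-density lipoprotein, was given 4 in Sik3 and the plasma carrier gene Ttr 2 in B4galt6, each 50% of its peaks, and Pax6, an eye factor, 1 in Elp4. The cases named here were picked once their values were known. Themis, a gene of thymocyte selection, was given 10 peaks in introns 7 to 27 of Ptprk, 79.9 to 205 kb upstream, which were 43.5% of its 23. Zap70, the kinase of the T cell receptor, was given 5 in Tmem131 at 18.0 to 57.7 kb and 1 in 4933424G06Rik, together 50% of its 12. Cd79b, a chain of the B cell receptor complex, was given 4 in the muscle sodium channel gene Scn4a, 10.5 to 15.3 kb upstream and 57.1% of its 7.

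Il7r, the receptor of interleukin 7, was given 4 in the end of Spef2, a sperm flagellum gene, 51.0 to 78.5 kb upstream. Rag2, of the recombinase of antigen receptor genes, was given 4 in B230118H07Rik at 24.1 to 61.2 kb upstream. The RefSeq table has starts of B230118H07Rik closer to these peaks, at 20.4 to 57.5 kb. Irf4 was given 4 in Exoc2 and 1 in Dusp22, Lyl1 4 in Nfix, Spib 2 in Pold1 and Mpo 2 in Bzrap1. Peaks with a RefSeq start of the host closer than the TSS named made up 173 of the 5973 with both distances (2.90%).

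Hosts that kept none of 10 or more peaks included Zmiz1, a coactivator that T cell development uses. It held 22, of which 11 were given to Mir3075, 8 to Israa and 3 to 4931406H21Rik. Ubac2 held 18, given to Gpr183 (8), Gpr18 (6) and Timm8a2 (4), where Gpr183 guides B cells in the follicle and lies inside Ubac2. Poc1b, a centriole gene, held 17, of which 16 went to Galnt4. Itpkb, an inositol phosphate kinase of lymphocytes, held 13 and Prdm16, a stem cell factor, 12. In Prdm16, 8 went to Arhgef16 and 4 to 5930403L14Rik, and the list gives Prdm16 itself 1 peak.

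Across chromosomes, later-intron peaks made up 18.6% (chromosome 3) to 24.5% (chromosome 14) of the peaks of an autosome and 14.7% on X, while the 14 peaks on Y held none. The share nearest to the host ran from 54.7% on chromosome 11 to 68.5% on chromosome 3, with 68.2% on X.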

How the data were processed

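ATAC-seq libraries of 7 cell types, 2 each, entered 1 merged list of 92842 peaks. The authors deposited it as the output of annotatePeaks of HOMER 4.10.2 on mm10, per the file headers and the submitters' processing notes. Aligner, peak caller and merging: not given in the sources used here. Every peak spans 499 bp, and the deposited peak score, 0 throughout, was left out. The list has no column with values per library, so depth is unknown and no comparison between cell types was made. The deposited distances and positions are in bp, as HOMER wrote them per the file headers.

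The members, gene lists and comparisons were chosen with earlier results of these data known. Introns were read from the annotation. Host genes came from the transcript accession through a RefSeq gene table (GRCm38.p6) for 20583 peaks and through ID pairs in the list itself for 147, while 32 had none. Host and nearest gene were the same when gene ID or symbol was equal. Distances to starts of the host used the RefSeq promoter table, which lacks chromosome 18 and some genes of other chromosomes, such as Ets1. They were known for 16312 of the 20556 peaks within the span of their host, and chromosome 18 holds 667 later-intron peaks.

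Genes were named by rule: the 15 hosts and 5 introns with the most peaks, the top 3 hosts per list, all preset host pairs, the 15 leading pairs of host and other nearest gene (ties included), the 5 peaks farthest from a TSS and 20 microRNAs. A gene that the rule names in the list of unrelated tissues is not reported here. Others are said to be chosen after their values were seen, and the hosts that kept none of their peaks, the antisense and synonym pairs, the host of the highest intron number and microRNA hosts were also chosen so. Intervals are exact (Clopper-Pearson, 95%), computed with Python 3.11.15, pandas 2.3.3 and scipy 1.17.1. The counting code was tested on simulated data. Alternatives varied the repeat filter, the lowest intron number, the host and nearest gene matching and the weight of each host.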

Additional observations from a re-analysis of the deposited data

How the results depend on the processing

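Of 29 values computed under another setting, 18 moved by less than their interval or, for counts, by less than 1.5 times, and 11 moved by more. The settings restricted to host spans and to synonyms, and some for the host transcript and the medians, were chosen after seeing the data. The share of peaks nearest to their host (62.5%) was 63.2% with repeats kept, 55.5% from intron 3 on, 70.7% where only coding nearest genes counted and 68.6% when every host counted once. From intron 3 on, 2.68% lay upstream of a start of their host (3.22% from intron 2 on). The share nearest to the host transcript itself (45.1%) was 45.7% with repeats kept and 40.0% from intron 3 on. The median distance was 18.4 kb for peaks nearest to their host (28.3 kb) and 25.7 kb for those nearest to another gene (37.7 kb) when every host counted once, and 32.9 kb and 39.4 kb from intron 3 on. Peaks nearest to another gene had the larger median in each of these settings. Long hosts with many peaks weigh less when every host counts once. The cause of the moves was not tested. No paired analysis was possible because the merged list holds no values per library. For the same reason no replicate could be left out, and the depth behind a peak is unknown.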
